A study of Caenorhabditis elegans with 2 samples.

Results

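The genes described here encode splicing factors of the nematode Caenorhabditis elegans. They were chosen by a rule on gene names, which uses no expression values but was set with earlier results of these data known. It takes the classes snr, rsp, prp, uaf, rnp, hrpf, sfa and sftb. Each gene needed at least 1 probe set that the array's annotation gives to that gene and no other. The rule found 44 genes with 61 probe sets, of 17118 genes named in this way in the whole series. The worms were hermaphrodites of the wild-type strain N2, grown on NGM plates with Escherichia coli OP50 at 20 °C and taken at the fourth larval stage (L4) after 48 hours. The control worms were unexposed. The exposed worms grew on plates with 2 µg/mL of pOPC7, an oligomeric proanthocyanidin trimer gallate from grape seeds. There was 1 array per group, so the differences below have no replicate check and were not tested, and this number of arrays sets their precision. How many worms were pooled is not given in the sources used here.

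Splicing removes introns from precursor messenger RNA. Small nuclear ribonucleoproteins (snRNPs), each a small RNA bound by a ring of Sm proteins and by proteins of its own, recognise the intron ends and assemble into the spliceosome, in which U5 and U6 help to form the catalytic centre. SR proteins and hnRNP proteins bind the transcript and help to decide which sites are used. In C. elegans the same machinery also joins a spliced leader to the start of most messages, and introns are short, with a strong 3' splice site that U2AF binds. In the germline several splicing factors were found in screens for genes that act in the switch from sperm to oocytes.

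Values are log2 values as the authors deposited them, and differences are pOPC7 minus control on that scale. A gene's value is the mean over its probe sets. Genes whose mean over both arrays was at least 6 are called measured, which left 8059 genes in the series and 43 of the 44 splicing factor genes, the exception being rnp-9. Levels of different genes are read by different probes and are not compared with each other.

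The splicing factor genes showed no surplus of calls over all measured genes. None of the 43 measured members was higher by 1.5-fold and none was lower by 1.5-fold. Of all measured genes 0.732% were higher and 0.211% lower by that much (0.943% in all). With shares this small, none among 43 genes is no departure from the background. At 1.2-fold, prp-8 and uaf-2 were higher with pOPC7 and hrpf-2, rsp-4 and snr-6 were lower. These 5 genes are 11.6% of the measured members, and 17.7% of all measured genes passed 1.2-fold in either direction (11.6% higher and 6.06% lower). The members' share was thus no larger than the background. After centring on the median of all measured genes the split was 1 higher and 3 lower, since uaf-2 then stood at 0.25. Over all measured genes the same step changed 935 higher and 488 lower to 682 and 681.

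The median difference over the 43 genes was -0.03, beside 0.04 over all measured genes. Of the members 18 were above 0 (41.9%), beside 57.8% of all measured genes. The members' differences had an SD of 0.14 and ran from -0.47 (hrpf-2) to 0.31 (prp-8), beside an SD of 0.20 over all measured genes. Spread falls with level on these arrays. Between levels of 6 and 8 the SD was 0.16 over 11 members and 0.21 over 4695 genes, between 8 and 10 it was 0.13 over 25 members and 0.17 over 2595 genes, and between 10 and 12 it was 0.14 over 7 members and 0.15 over 594 genes. The 74 measured cytosolic ribosomal protein genes had an SD of 0.09 and the 33 proteasome subunit genes 0.10, and these differences in spread were not tested.

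The only spread these arrays give is the disagreement of several probe sets for 1 gene. It holds no error between samples or arrays, since such probe sets read the same arrays. It also includes the offset of low-numbered probe sets described below. Differences of probe sets for the same gene had a pooled SD of 0.23 over the 1721 genes with several measured ones, and of 0.21 over the 13 such splicing factor genes. Of the 43 members 38 (88.4%) differed by less than 0.23, beside 76.4% of all measured genes. These shares are not matched for level. The difference of most splicing factor genes was therefore smaller than the scatter between probe sets that read the same gene.

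**Figure D1:**
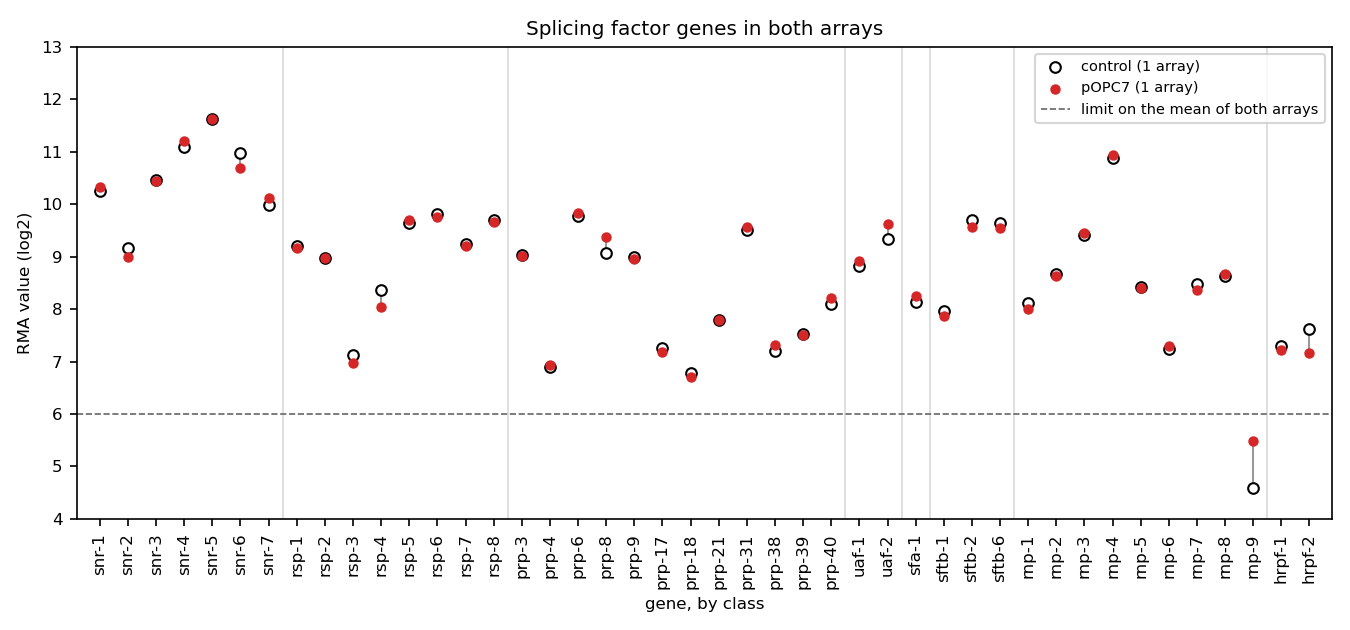
The RMA value (log2) of each splicing factor gene on the control array (open circles) and the pOPC7 array (red), grouped by class, with 1 array per group and the limit of 6 dashed. The circles of most genes overlap, and the widest gaps among measured genes are those of hrpf-2, rsp-4, prp-8, uaf-2 and snr-6, while rnp-9 lies under the limit.

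The snr genes encode the Sm proteins, which form a ring of subunits around the U1, U2, U4 and U5 RNAs. All 7 were measured. Their median difference was -0.01, 3 were above 0 and only snr-6 passed 1.2-fold. snr-6, the SmE gene, had 10.98 in unexposed and 10.70 in exposed worms. The difference of -0.28 rests on 1 probe set, and 4.83% of measured genes lay lower. It lay past 1.2-fold in each of 10 other settings, but only centring and removing trends on level or probe set number could change it.

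At the other end of the class stood snr-7, the SmG gene, with 9.98 and 10.12 (0.14). snr-4 (SmD2) had 11.10 in the control and 11.20 with pOPC7 and snr-1 (SmD3) had 10.26 and 10.32. snr-3 (SmD1) had 10.46 and 10.44 and snr-5 (SmF) had 11.63 and 11.62. These 4 genes differed by -0.03 to 0.10, with both signs and all inside the SD of 0.23 between probe sets of a gene. snr-2, the SmB gene, had a mean of 9.16 in the control and 8.998 with pOPC7 (-0.16). Its 2 probe sets disagreed, with 9.07 and 8.65 (-0.42) on 1 and 9.26 and 9.35 (0.09) on the other.

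The rsp genes encode SR proteins, whose RNA recognition motifs bind exonic enhancers and whose arginine-serine domains contact other factors. All 8 were measured, with a median of -0.04 and 1 gene above 0. rsp-4, a homologue of mammalian SC35, had 8.36 in the control and 8.04 with pOPC7 (-0.33, or 0.80-fold). This value came from 1 of its 2 probe sets, which went from 6.76 to 6.12 (-0.64), while the brighter one had 9.97 and 9.96 (-0.01). Taken from the brighter probe set alone, rsp-4 therefore did not differ by 1.2-fold.

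rsp-3, the homologue of mammalian SF2/ASF, had means of 7.13 and 6.97 (-0.16) over 3 probe sets. These gave -0.39, -0.21 and 0.12, and the probe set at -0.21 was dim (4.26 and 4.05). rsp-5 was the highest member, with 9.64 and 9.71 (0.07), and the 2 probe sets of that gene were both above 0 (0.03 and 0.10). The remaining members lay within 0.07 of 0. rsp-6, a homologue of SRp20, had 9.81 and 9.75, rsp-7 had 9.24 and 9.21, and rsp-8, the worm homologue of the splicing regulator Tra2, had 9.70 and 9.67. rsp-1 (9.21 and 9.17) and rsp-2 (8.98 and 8.98) each had probe sets of both signs, from -0.13 to 0.09 and from -0.08 to 0.07. So 7 of 8 SR genes were below 0, but all except rsp-3 and rsp-4 by under 1.1-fold, and both exceptions rested on probe sets that disagreed.

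The prp genes are named after yeast pre-mRNA processing mutants and encode proteins of the snRNPs and of the assembled spliceosome. All 12 were measured, each on 1 probe set, with a median of 0.02 and 7 above 0. prp-8 encodes the large U5 protein at the heart of the spliceosome. Its value was 9.07 in unexposed and 9.38 in exposed worms. The difference of 0.31, or 1.24-fold, was above that of 91.9% of measured genes. It stayed past 1.2-fold in all 9 other settings that gave it a value (0.27 to 0.31). Only centring and removing trends could change the value of prp-8. Its probe set carries the suffix _s_at, which marks matches to several transcripts, so it could not be set against a more specific one.

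The other genes of the U4/U6.U5 tri-snRNP differed less. prp-38, named for a yeast protein needed to activate the spliceosome, had 7.19 and 7.31 (0.12), the U5 gene prp-6 had 9.77 and 9.84 (0.07), and the U4/U6 gene prp-31 had 9.50 and 9.56 (0.06). prp-4 had 6.90 and 6.93 (0.03) and prp-3 had 9.03 and 9.01 (-0.02), both U4/U6 proteins. Thus 5 of 6 tri-snRNP members were above 0, and prp-8 alone passed 1.2-fold.

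Genes named for factors of the second catalytic step were the lowest of the class, prp-18 with 6.78 and 6.70 and prp-17 with 7.26 and 7.17, each at -0.08. Of genes named for U1 snRNP components of yeast, prp-40 had 8.11 and 8.22 (0.11) and prp-39 had 7.53 and 7.50 (-0.03). The SF3a subunit genes prp-9 (8.99 and 8.95) and prp-21 (7.78 and 7.79) differed by -0.04 and 0.01. With prp-8 set aside, the class lay between -0.08 and 0.12.

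The uaf and sfa genes encode the proteins that first bind the 3' end of the intron. SFA-1 is the worm's branch point binding protein, and UAF-1 and UAF-2 are the large and small subunits of U2AF, which read the polypyrimidine tract and the AG of the 3' splice site. All 3 genes were above 0. uaf-2 had 9.33 in the control and 9.62 with pOPC7 (0.29, or 1.22-fold), sfa-1 had 8.13 and 8.26 (0.13), and uaf-1 had 8.83 and 8.92 (0.10). The 2 probe sets of uaf-1 gave the same difference, 0.10 each, the closest match among the members with several. In every other setting that gave a value the 3 genes remained above 0. For sfa-1 and uaf-2 only centring and removing trends could change the value. uaf-2 rests on 1 probe set, of the _s_at kind, and lay past 1.2-fold in 7 of 8 other settings.

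The sftb genes encode subunits of SF3b, the part of the U2 snRNP that clamps the branch point. All 3 were below 0 by similar amounts. sftb-2 had 9.69 and 9.57 (-0.12), with probe sets at -0.20 and -0.04. sftb-6 had 9.64 and 9.54 (-0.10), and sftb-1, the homologue of the SF3B1 gene often mutated in human blood cancers, had 7.96 and 7.88 (-0.08). None passed 1.1-fold, and each was below 0 in every other setting that gave a value. For sftb-1 and sftb-6, with a single probe set each, only centring and removing trends could change the value.

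**Figure D2:**
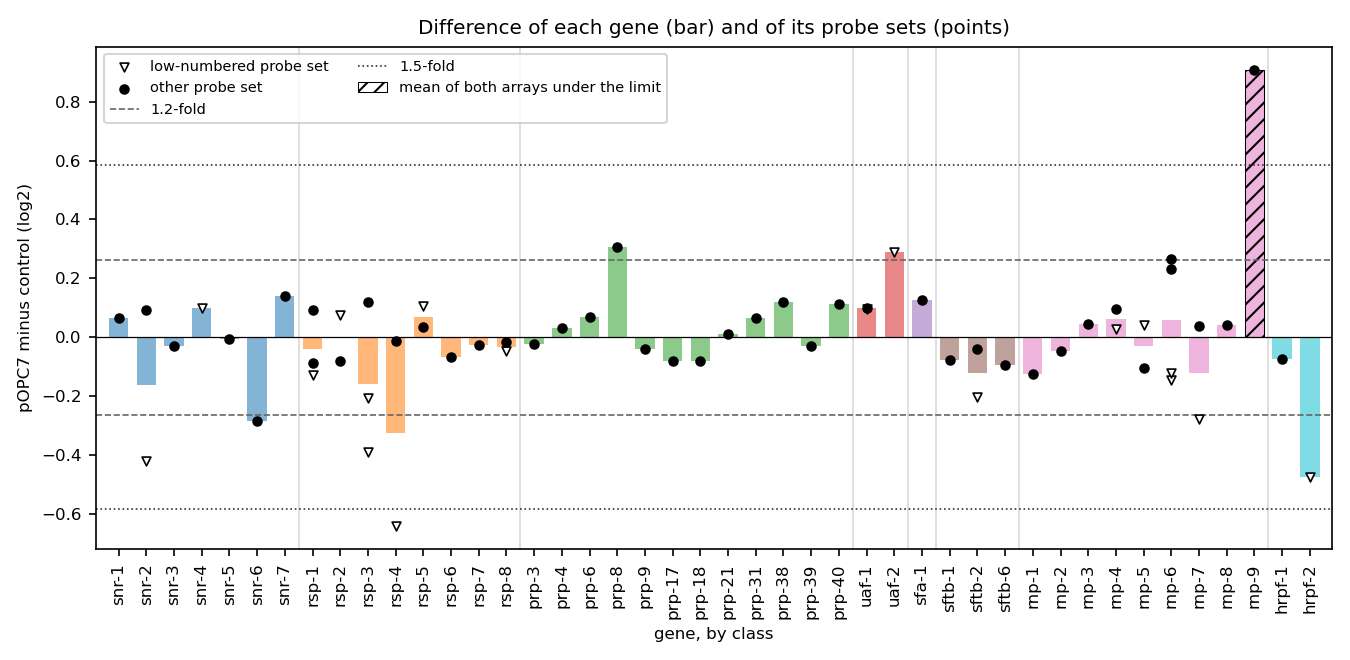
The difference between the arrays (pOPC7 minus control, log2) of each splicing factor gene as a bar coloured by class, with its probe sets as points (triangles for low-numbered probe sets, circles for the others) and dashed and dotted lines at 1.2-fold and 1.5-fold. Bars of measured genes stay inside 1.5-fold, 5 pass 1.2-fold, and the hatched bar of rnp-9 (0.91) belongs to a gene under the limit of 6.

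The rnp genes share an RNA recognition motif and are a mixed class, not all of which act in splicing. Of 9 on the array 8 were measured, with a median of 0.01, 4 above 0 and none past 1.2-fold. rnp-7 encodes a U1 snRNP protein and had 8.48 and 8.36 (-0.12), on probe sets that gave -0.28 and 0.04. The neighbouring genes rnp-2 and rnp-3, which encode closely related proteins of U1 and U2, had 8.67 and 8.63 (-0.05) and 9.40 and 9.45 (0.04). rnp-6, the homologue of the U2AF-related factor PUF60, had 7.24 and 7.29 (0.06). Its 4 probe sets fell into opposite pairs, at 0.27 and 0.23 and at -0.12 and -0.15.

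The exon junction complex marks spliced junctions. Its Y14 subunit gene rnp-4 was the highest measured rnp gene, with 10.88 and 10.94 (0.06), and both probe sets were above 0 (0.03 and 0.09). rnp-5, a homologue of the junction-associated factor RNPS1, had 8.43 and 8.39 (-0.03) on probe sets of opposite sign (-0.10 and 0.04). rnp-1 was the lowest, with 8.12 and 7.99 (-0.13). rnp-8, which encodes a partner of the germline poly(A) polymerase GLD-2 and is not known as a splicing factor, had 8.63 and 8.67 (0.04).

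rnp-9 was the only member under the limit and the member with the largest difference of all. Its single probe set went from 4.58 to 5.49 (0.91, or 1.88-fold). Without a limit on level 333 of 17118 genes (1.95%) were higher by 1.5-fold, and rnp-9 was among them. With the limit 59 of 8059 were (0.732%). Large differences were thus a larger share once dim genes were counted, though the spread under the limit was not computed. No second probe set reads rnp-9.

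The hrpf genes encode hnRNP F/H proteins, which in mammals bind runs of guanines. hrpf-2 had 7.63 in the control and 7.16 with pOPC7. This difference of -0.47, or 0.72-fold, was the largest of the measured members, and 0.695% of measured genes lay lower. It remained past 1.2-fold in all 9 other settings that gave it a value (-0.53 to -0.44). Only centring and removing trends could change this value, and the only probe set of hrpf-2 belongs to the low-numbered group described next. hrpf-1 had 7.29 and 7.21 (-0.07). The median of the 2 genes, -0.27, is past 1.2-fold through hrpf-2.

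Low-numbered probe sets, those whose names begin with 171 to 175, read lower with pOPC7 than other probe sets of the same genes. The dividing point was chosen after the differences along the probe set numbers had been seen. Over the 1299 genes with measured probe sets of both kinds the median difference was -0.12 on the low-numbered and 0.05 on the others, and 969 of them were lower on the low-numbered ones. Among the 13 splicing factor genes with both kinds the medians were -0.13 and 0.03, and 10 were lower on the low-numbered probe sets. The gap was widest in rsp-4 (-0.63), snr-2 (-0.51), rsp-3 (-0.51), rnp-6 (-0.38) and rnp-7 (-0.32). It ran the other way in rsp-2 (0.16), rnp-5 (0.14) and rsp-5 (0.07). Among the members, all low-numbered probe sets ending in _at were below 0, from -0.64 (rsp-4) to -0.12 (rnp-6). Those ending in _s_at or _x_at had both signs, from -0.21 (rsp-3) to 0.29 (uaf-2). In the 2 lists of other splicing genes described below, low-numbered probe sets ending in _at were below 0 except that of mog-2 (0.09). Those ending in _s_at or _x_at again had both signs, from -0.41 (fox-1, dim) to 0.34 (etr-1). Over all genes the low-numbered probe sets were not split by suffix.

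Without low-numbered probe sets, 40 members remained with a median of -0.0029 and 50% above 0, and all measured genes then had a median of 0.06 with 63.6% above 0. Of the genes past 1.2-fold, prp-8 and snr-6 kept their values, rsp-4 lay inside (-0.01) and hrpf-2 and uaf-2 were lost, as these 2 and snr-4 have no other probe set. snr-2 (0.09), rsp-3 (0.12) and rnp-7 (0.04) were then above 0. The uaf-2 value of 0.29 lay above the median of -0.06 over the 2474 measured low-numbered probe sets. That median pools all suffixes, while the uaf-2 probe set ends in _s_at, and no median by suffix was computed.

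**Figure D3:**
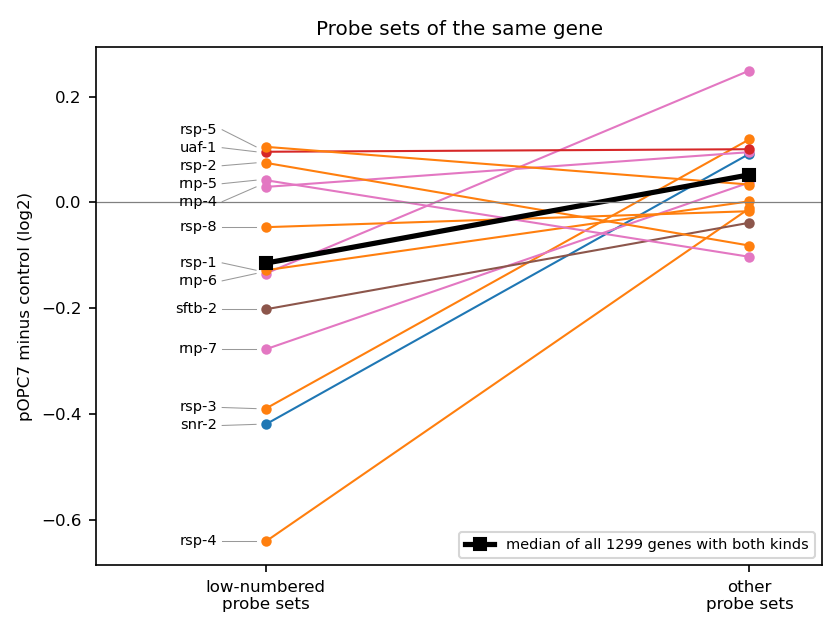
The difference between the arrays (pOPC7 minus control, log2) on low-numbered probe sets (left) and on the other probe sets (right) of the 13 splicing factor genes that have measured probe sets of both kinds, each line a gene coloured by class, with the median of all 1299 such genes in black. Most lines climb to the right, steepest for rsp-4, snr-2 and rsp-3, and the line of uaf-1 is flat.

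Genes next to each other on a chromosome were found by the order of protein-coding genes in the RefSeq table of WBcel235. The 3 pairs of adjacent members were snr-3 and rsp-5 (-0.03 and 0.07), rsp-2 and rsp-1 (-0.0037 and -0.04), and rnp-2 and rnp-3 (-0.05 and 0.04). Only rsp-1 and rsp-2 had the same sign, and both have probe sets ending in _x_at, which may also match other genes. All these differences lay inside the SD of 0.23 between probe sets of a gene. Their signs therefore cannot show whether neighbours run in parallel.

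Other genes of the spliceosome showed no surplus of calls over all measured genes either. Of 65 listed genes, 59 were found under those names and 57 were measured, with a median of 0.08. Of these 37 (64.9%) were above 0, beside 57.8% of all measured genes. By 1.2-fold 3 were higher and 1 was lower, fewer than the 11.6% and 6.06% of all measured genes would give. These shares are not matched for level. snrp-40.1, named for a U5 snRNP protein, had 6.09 and 6.57 (0.47), the DEAD-box helicase gene ddx-23 had 6.27 and 6.71 (0.44), and rsr-2, which encodes an SR-related spliceosomal protein, had 8.24 and 8.65 (0.42). ncbp-1, the large subunit gene of the nuclear cap binding complex, had 6.75 and 6.39 (-0.36). Its low-numbered probe set gave -0.60 and the other -0.12.

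Splicing regulators that act in particular tissues or exons had a median of 0.04 over 21 measured genes (24 of 28 listed names were found), 12 were above 0 (57.1%), and 3 were higher and 1 lower by 1.2-fold. These shares are close to those of all measured genes (57.8%, 11.6% and 6.06%). The muscle factor gene sup-12 had 7.11 and 7.52 (0.41), the STAR-family gene asd-2 had 6.55 and 6.96 (0.41) and the muscleblind gene mbl-1 had 9.08 and 9.34 (0.26). tiar-1, a TIA-1 homologue, had 6.84 and 6.37 (-0.47), which came from a low-numbered probe set at -0.90 beside one at -0.05. In both listed genes that were lower by 1.2-fold, ncbp-1 and tiar-1, the low-numbered probe set was thus far below the other.

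**Figure D4:**
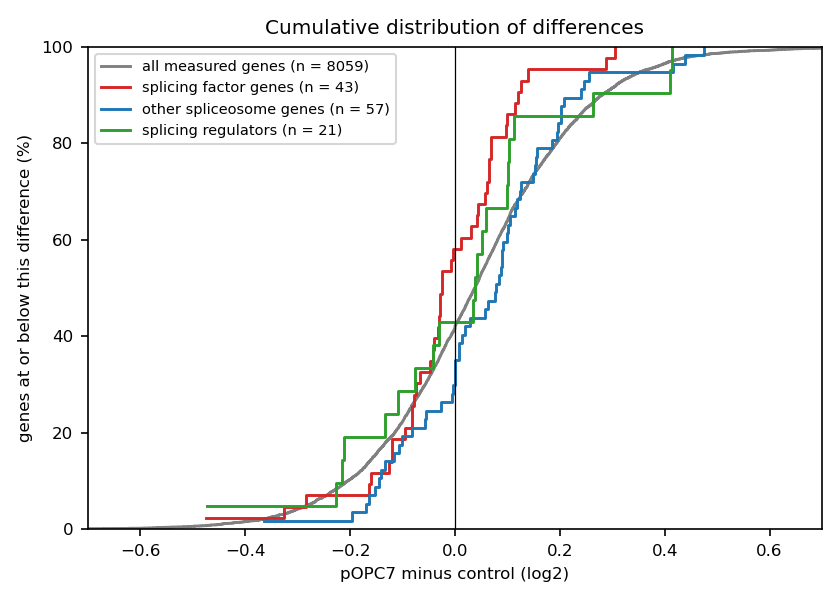
The share of genes (percent) at or below each difference between the arrays (pOPC7 minus control, log2) for all 8059 measured genes, the 43 measured splicing factor genes, 57 other spliceosome genes and 21 splicing regulators. The line of the splicing factor genes climbs most steeply near 0 and reaches 100% at 0.31, and that of the other spliceosome genes lies to its right over most of the range.

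**Figure D5:**
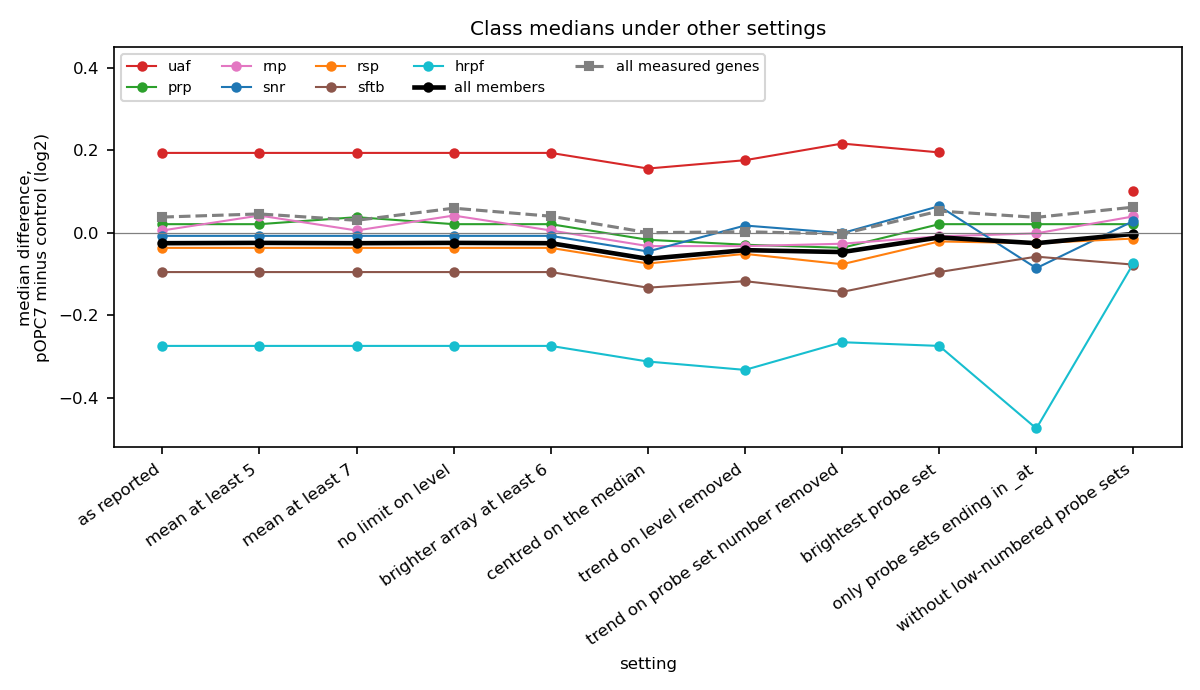
The median difference (pOPC7 minus control, log2) of classes with more than 1 measured gene, of all members and of all measured genes, under the reported setting and 10 others. The median of all members stays under that of all measured genes throughout, uaf is highest where it has a value, and hrpf, with 2 genes, is lowest (-0.27 as reported) except without low-numbered probe sets, where hrpf-1 alone is left (-0.074) and sftb is slightly lower (-0.077).

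The samples were whole worms, in which fewer cells of a type and less RNA per cell cannot be told apart. All 20 germline, all 12 oocyte and 9 of 11 sperm genes were measured and none of 9 male genes was. These lists do not mark the L4 stage by themselves, and the adult collagen gene col-19 was bright on both arrays (10.89 in the control and 10.81 with pOPC7). The germline list, from a tissue rich in RNA-processing factors, had a median difference of -0.03 with 1 gene higher and 1 lower by 1.2-fold, the oocyte list -0.0015 (1 higher, 2 lower) and the sperm list 0.02 (0 higher, 4 lower). Over all measured genes 11.6% were higher and 6.06% lower by that much, so 4 of 9 sperm genes is a larger share lower. Medians were 0.01 over 10 intestinal, -0.02 over 12 muscle, 0.06 over 7 neuronal and 0.05 over 10 hypodermal and moulting genes. Common reference genes had -0.16 over 11. Of the hypodermal and moulting genes, nhr-23 (0.50) and rol-6 (0.45) were higher and col-12 (-0.44) and mlt-10 (-0.29) lower by 1.2-fold. In the intestinal, muscle, neuronal and reference lists, elt-7 and unc-119 were higher by 1.2-fold. Lower by as much were act-4, dim-1, egl-21, tbp-1, cdc-42 and gpd-3. The part of any of these in the values of the splicing factor genes was not tested.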

How the data were processed

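Total RNA (200 ng per sample) was amplified and biotin-labelled, per the labels' protocols. The authors deposited 1 table of log2 values, made with RMA per the submitters' processing notes; its version is not given in the sources used here, nor is whether a column stands for 1 hybridisation. The log2 scale was read from the range of the values (1.78 to 13.90). Of 22625 probe sets, 20766 name 1 gene, 887 several and 972 none here; a probe set that names sftb-6 and another gene was left out. All 44 members matched RefSeq (WBcel235) by Entrez identifier. prp-19 fits the rule by its RefSeq symbol and was not analysed here. No sequences were used here. With 1 array per group no test, SE or p-value was computed.

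Members and lists were chosen with earlier results of these data known. Every member is named with its values, and up to 4 genes of each other splicing list with the largest differences. The code was tested on simulated data. Other settings changed the limit on level (5, 7, none, or the brighter array at 6), the scaling (centring, or removing a loess trend, span 0.3, on level or probe set number) and the probe sets (brightest, those ending in _at, or without low-numbered ones, the last chosen after seeing the data). Analyses used Python 3.11.15, pandas 2.3.3, numpy 2.4.6, statsmodels 0.14.6, scipy 1.17.1 and matplotlib 3.10.9.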

Additional observations from a re-analysis of the deposited data

How the results depend on the processing

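With 1 array per group no replicate could be left out, and no depth or detection call limits the values beyond the limit on level. No paired analysis was possible because each group has 1 sample. A median was taken as changed when it moved by more than the probe set SD divided by the square root of its number of genes. Counts were taken as unchanged within 1.5 times. The percent of members above 0 was taken as unchanged inside the 95% binomial interval of the reported value, which treats genes as independent. By that rule a fall from 41.9% to 32.6%, with the trend on probe set number removed, counts as unchanged. Of 157 summary values under other settings 141 did not change by these rules. Centring moved the median of all members to -0.063 and that of the other spliceosome genes to 0.0404 (0.047 and 0.0405 with the trends on level and on probe set number removed), and left 1 member higher by 1.2-fold. With only probe sets ending in _at, 25 members remained. Of these 0 were higher and 5 lower by 1.2-fold, and 1, rsp-4, was lower by 1.5-fold. The shares of the 5348 genes measured there were 12.5%, 8.58% and 0.524%. The 5 lower members were hrpf-2, rsp-4, rsp-3, rnp-7 and snr-6. All but snr-6 then rested on a low-numbered probe set alone, so this count holds the offset of those probe sets. The hrpf median was -0.47 and that of the regulators -0.042. Without low-numbered probe sets 1 of 40 members was higher and 1 lower by 1.2-fold, beside 13.7% and 4.75% of all genes, the hrpf median was -0.074 and that of the regulators 0.093. With a mean of at least 5, or no limit, 1 of 44 members (rnp-9) was higher by 1.5-fold, beside 1.19% and 1.95% of all genes. Apart from centring and the trends, which shift every gene, these follow from the genes or probe sets that each setting keeps. With the brightest probe set rsp-4 gave -0.01, rsp-3 0.12 and snr-2 0.09. Of the 44 genes 33 kept their sign in every setting that gave a value. For genes with 1 probe set only centring and the trends can change the value, and the other settings keep or drop it.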

Other observations

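Members can be joined with other listed genes that encode parts of the same particle. These groups were put together after the values had been seen, and their values are descriptions of these 2 arrays. Of genes for U5 snRNP proteins, prp-8 (0.31), prp-6 (0.07), the helicase gene snrp-200 (8.47 in the control and 8.60 with pOPC7, 0.12), the GTPase gene eftu-2 (9.09 and 9.15, 0.06), ddx-23 (0.44), snrp-40.1 (0.47) and its namesake snrp-40.2 (6.85 and 6.95, 0.10) were all above 0, with a median of 0.12 over 7 genes. Of all measured genes 57.8% were above 0, and 63.6% without low-numbered probe sets. prp-8, ddx-23 and snrp-40.1 had already been named above for their large differences. Each of the 7 genes but snrp-40.2 rests on 1 probe set, and no probe set of the 7 is low-numbered. ddx-23 and snrp-40.1 lay close to the limit of 6 in the control.

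In the SF3a and SF3b parts of the U2 snRNP the genes went both ways. The 3 sftb genes were below 0, and teg-4, which encodes a further SF3b subunit, had 8.31 in the control and 8.52 with pOPC7 (0.21). Of the SF3a genes, prp-9 had -0.04, prp-21 had 0.01 and repo-1 had 0.08. The 7 genes had a median of -0.04.

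A probe set that the annotation assigns to both sftb-6 and C50D2.10 had 4.83 in the control and 5.12 with pOPC7 (0.29). Both values lie under the limit of 6, so it would not count as measured. The probe set of sftb-6 alone, which is measured, had -0.10.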
